A study of Homo sapiens with 6 samples.

Results

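The genes described here lie on chromosome 20 and were taken as a group because their RNA was, as a chromosome, higher in one genotype than in the other. The cells were K562, an established human line derived from chronic myeloid leukaemia, in which the fusion kinase BCR::ABL1 is active. Of 6 RNA libraries, 3 were labelled WT and 3 were labelled ACK KO, and all 6 came from cells grown in the same medium with no drug or other agent named. ACK is a non-receptor tyrosine kinase encoded by TNK2, and the series is titled around ACK and the transcription factor STAT5. How the knockout was made, and whether it is 1 clone or a pool, is not stated in the labels, so genotype and cell line history cannot be told apart. A member is a gene placed on chromosome 20 of GRCh38 whose normalised value reached 10 in no fewer than 3 of the 6 libraries. There were 393 members among 462 chromosome 20 genes of the table and among 16658 genes of all chromosomes that met the same minimum. They comprised 332 protein-coding genes, 49 long non-coding RNAs, 10 pseudogenes and 2 small nucleolar RNAs, and 125 started on the short (p) arm and 268 on the long (q) arm. The difference between the genotypes chose the chromosome, so the level of the shift and its sign are given as description. Of the members, 6 met the minimum through 1 group alone and so had to differ: JAG1 and LINC00261 through WT, and CHGB, NTSR1, NKILA and STK4-DT through the KO-labelled libraries. Just inside the minimum stood RAD21L1, whose third-highest value was 10.04, and just outside stood BMP2 at 9.91.

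A gain or loss of a whole chromosome changes the template for all of its genes at once, and RNA levels of most genes then move with the number of copies. Single genes can depart from such a shared shift where feedback, a limiting regulator or the state of the local chromatin sets their level. Leukaemia lines such as K562 carry many changes of chromosome number, and chromosome 20 holds genes of cell division, signalling, imprinting and blood cell function. DNA copy number was not measured in the values used here, and more templates, more transcription per template and slower RNA decay cannot be told apart.

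Promoters of 4 members are shown because their genes mark the extremes and the centre of the chromosome's differences. Each is 250 bases before to 50 after the start of the gene as RefSeq gives it for GRCh38.p14, written 5′ to 3′ on the strand of the gene, with CG dinucleotides in capitals. PROCR (chr20:35171822-35172121, plus strand) had the most clearly separated upward departure, LINC00656 (chr20:23132587-23132886, minus strand) lay in a group of 4 neighbours that departed upward, JAG1 (chr20:10673950-10674249, minus strand) departed downward, and RAE1 (chr20:57351292-57351591, plus strand) sat at the centre.
PROCR: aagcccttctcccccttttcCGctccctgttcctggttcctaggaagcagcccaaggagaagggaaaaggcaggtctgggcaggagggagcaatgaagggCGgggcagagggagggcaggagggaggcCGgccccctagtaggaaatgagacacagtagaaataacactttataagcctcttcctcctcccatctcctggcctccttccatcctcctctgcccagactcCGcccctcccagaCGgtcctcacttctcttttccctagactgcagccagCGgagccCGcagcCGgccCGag
LINC00656: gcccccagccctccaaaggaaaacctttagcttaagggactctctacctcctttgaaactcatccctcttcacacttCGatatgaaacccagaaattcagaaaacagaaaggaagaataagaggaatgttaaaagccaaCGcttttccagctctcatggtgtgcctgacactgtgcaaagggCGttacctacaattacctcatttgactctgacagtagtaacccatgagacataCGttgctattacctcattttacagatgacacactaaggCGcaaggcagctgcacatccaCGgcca
JAG1: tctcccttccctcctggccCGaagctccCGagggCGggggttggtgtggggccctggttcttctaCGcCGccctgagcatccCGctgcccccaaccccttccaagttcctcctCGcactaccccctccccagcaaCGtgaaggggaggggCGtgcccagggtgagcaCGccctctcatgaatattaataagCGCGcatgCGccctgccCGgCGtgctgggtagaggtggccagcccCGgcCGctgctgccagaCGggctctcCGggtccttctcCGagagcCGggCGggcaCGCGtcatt
RAE1: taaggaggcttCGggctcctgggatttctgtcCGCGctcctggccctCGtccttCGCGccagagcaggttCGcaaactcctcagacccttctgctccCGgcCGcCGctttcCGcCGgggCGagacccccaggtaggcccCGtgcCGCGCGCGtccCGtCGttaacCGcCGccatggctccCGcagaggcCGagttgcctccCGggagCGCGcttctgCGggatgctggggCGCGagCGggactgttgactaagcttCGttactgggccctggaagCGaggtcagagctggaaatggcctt
The windows hold 9, 6, 24 and 33 CG dinucleotides in the order shown. Of the 393 members, 280 were matched in the RefSeq promoter table. Their windows held a median of 29.5 CG dinucleotides, against 14 over all 35116 promoters of the table and 13 over the 921 of chromosome 20. Members that kept close to the chromosome's median difference had a median of 31 (157 genes), those well above it 25 (33 genes) and those well below it 27 (21 genes). The letters TTCNNNGAA, the spaced palindrome that STAT factors bind, were found in 4.64% of matched member promoters, 7.66% of all promoters and 7.82% of those of chromosome 20. The letters AGATAA or TGATAA, read on both strands, were found in 6.79%, 16.3% and 13.5%, in the same order. Members are expressed genes, and their windows had a median of 68% G and C, against 58.7% over all promoters. These shares are therefore not set against promoters of the same make-up. A match in letters is a description and no measure of binding.

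The deposited values sum to between 43.5 M and 53.3 M per library. The number of reads behind them is unknown, so errors below are the spread between 3 libraries per genotype. The labels call the replicates biological without saying whether they were separate cultures or clones, and each p-value measures the spread between these libraries alone. Replicates of the same number deviated together from their group means, with correlations across all tested genes of 0.699, 0.521 and 0.342 for numbers 1, 2 and 3. The replicate 1 libraries stood apart from the rest, with correlations of -0.418 to -0.594 between a replicate 1 library and the other numbers of the opposite genotype. A blocked fit, with replicate number as the block, was therefore made beside the unblocked one, and the main values were also taken without both replicate 1 libraries. Normalised TNK2 was 829.7, 613 and 642 in WT and 741, 506 and 598 in ACK KO, a log2 difference of -0.18 ± 0.21 (SE, limma, Benjamini-Hochberg adjusted p = 0.681; exact two-sided permutation p = 0.4, the smallest possible being 0.1). The groups overlapped, and since a disrupted gene can still be transcribed, TNK2 RNA does not check the labels. All 12 K562 markers, among them the haemoglobin genes and GATA1, passed the minimum, with sums of 89965 to 156217 in WT and 102234 to 153199 in KO-labelled libraries. Single markers within these sums were not all equal. HBE1 had 1387, 1031 and 1527 in WT against 9391, 10443 and 17322 with the KO label. GATA1 had 9877, 8842 and 8921 against 6980, 7030 and 6863, while HBG1, HBG2 and KLF1 overlapped between genotypes. Markers of other cell types were sparse or unequal: 3 of 6 lymphoid, 2 of 5 epithelial and 1 of 6 fibroblast genes passed. Lymphoid sums ran from 509 to 1806 in WT and from 1002 to 1778 in KO-labelled libraries, with CD3D making up most of them. Epithelial sums ran from 4715 to 5337 in WT and 6820 to 8079 in KO-labelled libraries, of which KRT19 held 358, 163 and 194 in WT against 3070, 2207 and 2420 with the KO label, while EPCAM made up most of the rest. Fibroblast sums were 14.2 to 35.3 and 88.2 to 217, with COL1A2, LUM and PDGFRA not among the genes of the table. The part of these differences in the results below was not tested.

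Chromosome 20 supplied a larger share of the measured RNA in every KO-labelled library. Its members held 1.36%, 1.43% and 1.41% of the summed values in WT, against 2.06%, 2.10% and 2.08% in ACK KO. The means were 1.40% ± 0.0384 and 2.08% ± 0.0200 (SD, n = 3 each), a ratio of 1.49, and the groups did not overlap. In log2(value + 1), ACK KO minus WT, the median over the 393 members was 0.54, or 1.46-fold. The middle 50% of the members lay between 0.33 and 0.79, and 90.1% were above 0, beside a median of -0.02 and 48.4% above 0 over all tested genes. In all 3 replicate pairs, 321 of 393 members were above 0, beside 31.8% of all tested genes. A shifted median was not particular to chromosome 20: it was 0.39 on chromosome 7 and -0.62 on chromosome 5. Whether those shifts run along the whole of chromosomes 5 and 7 was not examined here. The medians of the 20 others lay between -0.10 and 0.18.

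**Figure D1:**
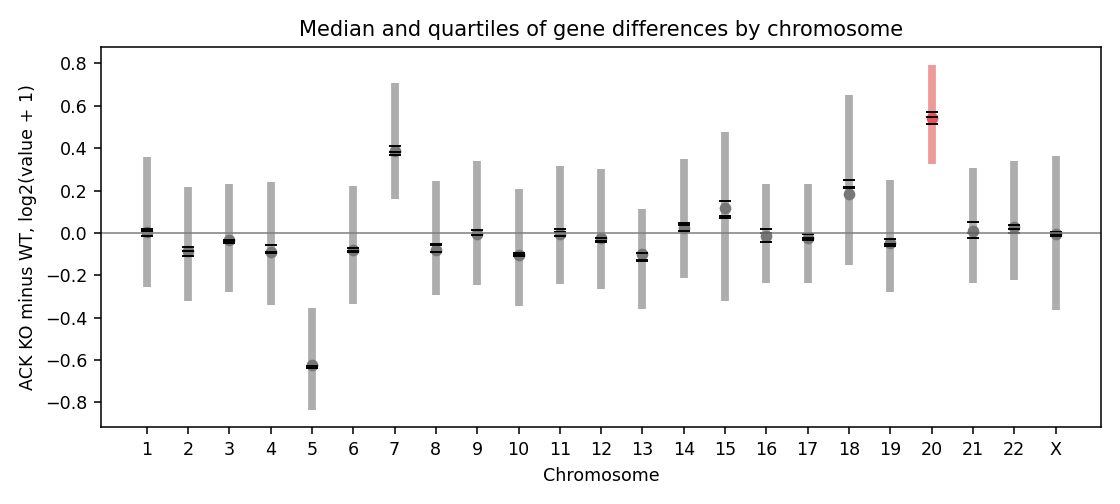
Median (point) and quartiles (bar) of the log2(value + 1) difference, ACK KO minus WT, over the tested genes of each chromosome, with the median of each replicate pair as a short black line. Chromosome 20 (red) has its median at 0.54 and its bar wholly above 0, and its 3 pairs lie close together.

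The differences on chromosome 20 were also tightly grouped. Their interquartile range of 0.47 was the second smallest of 23 chromosomes, but chromosomes 16 and 17 also had 0.47, with 52.5% of genes within 0.25 of their medians. Of the chromosome 20 members, 23.2% lay more than 0.5 from their own chromosome's median, the smallest such share of the 23 (24.5% to 40.1% on the 20 others). Members are sorted here by distance from the median of 0.54. Within 0.25 of it lay 203 genes (51.7%), called followers below, 99 were 0.25 to 0.5 away, and 91 departed by more than 0.5, of which 48 were above and 43 below. Among all tested genes, 45.9% lay within 0.25 of the median of their own chromosome, with genes that have no position counted as outside. The classes were set from the mean of the 3 pairs, so the values of single pairs describe their spread and are no separate check. Of the followers, 181 stayed within 0.5 of the median, a limit wider than their own, in each pair. Of the departing genes, 43 of 48 above and 38 of 43 below were on the same side in all 3 pairs, and 25 and 26 were past 0.5 in all 3.

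Neither arm carried the shift alone. The p arm had a median log2 difference of 0.58, with 91.2% of 125 genes above 0, and the q arm one of 0.53, with 89.6% of 268 genes above 0. The q arm minus p arm difference was -0.05, and in the 3 replicate pairs it was -0.009, -0.098 and -0.102, a spread as large as the difference itself (SD 0.0527). Over running windows of 25 neighbouring members, the median stayed above 0 in 369 of 369 windows. It was lowest, 0.29, around ABALON at 31.7 Mb and highest, 0.74, around MHENCR at 63.6 Mb, both named after their values were seen. Blocks of 5 Mb with at least 20 members had medians from 0.49 to 0.60. Thinner blocks reached 0.37 at 50 to 55 Mb (19 members) and 0.69 at 20 to 25 Mb (17 members).

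**Figure D2:**
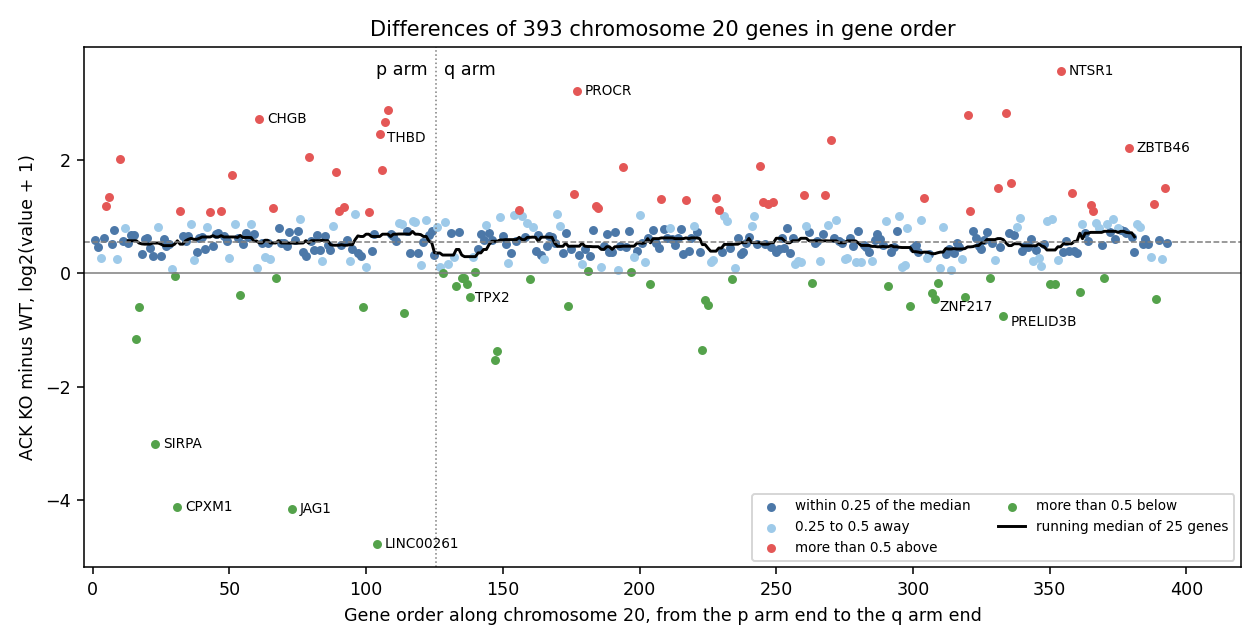
Log2(value + 1) difference, ACK KO minus WT, of each of the 393 chromosome 20 members in gene order, coloured by distance from the members' median (dashed line), with the running median of 25 genes in black and the arms parted by a dotted line. The black line stays above 0 on both arms while single genes, most of all on the p arm, reach from -4.76 to 2.88 there and up to 3.56 on the q arm.

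Single-gene calls used limma on all 16658 tested genes with Benjamini-Hochberg adjustment and a threshold of 0.05. By this test 81 members rose and 5 fell with the KO label, beside 5.37% and 4.96% of all tested genes. With the replicate block these counts were 272 and 10, beside 19.7% and 20% of all tested genes. The values did not overlap between the genotypes for 188 members that were higher and 10 that were lower, beside 15.2% and 14.7% of all tested genes. Because this contrast chose the chromosome, these counts describe it and support nothing further, and 3 of the 81 and 2 of the 5 met the minimum through 1 group alone. Many calls were lost when 1 library was left out. Of the 81, 69, 35 and 17 remained without WT replicate 1, 2 or 3, and 44, 20 and 16 without ACK KO replicate 1, 2 or 3. All 81 kept their sign in each of these fits, and 80 remained called without both replicate 1 libraries. In all 6 fits 14 were called, among them NRSN2, TCF15, ATRN, CHGB, TMX4, ZNF133, ENSG00000279164, EDEM2, PROCR, CPNE1, PKIG, ADA and PPDPF.

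The genes nearest the median among those of high abundance were PSMF1, RAB5IF, RAE1, NELFCD, MKKS and NCOA6. NCOA6, a coactivator of nuclear receptors, had normalised values of 2736, 2661 and 2690 in WT against 3628, 4189 and 3876 with the KO label. Its groups did not overlap, and it rose by a log2 of 0.53 ± 0.11 (SE, limma adjusted p = 0.0317, but 0.14 without ACK KO replicate 3). PSMF1, an inhibitor of the proteasome, had 2984, 4005 and 3787 against 4466, 5630 and 5437. Every KO-labelled value of PSMF1 was above every WT value, at a log2 difference of 0.53 ± 0.16 (SE, limma adjusted p = 0.0966, and 8.02e-04 with the block). RAE1, which takes part in export of messenger RNA, had 1370, 3033 and 2625 against 2213, 4048 and 3696. The replicate 1 libraries were the lowest of both genotypes, so that the RAE1 groups overlapped although the KO-labelled library of each pair was higher, by 0.69, 0.42 and 0.49 in log2 (limma adjusted p = 0.438, and 0.00221 with the block). NELFCD, a subunit of the negative elongation factor, RAB5IF and MKKS, a chaperonin-like protein, showed the same: overlapping groups, log2 differences of 0.53 to 0.54, adjusted p-values of 0.166 to 0.563 in limma and 0.00174 to 0.00611 with the block.

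Abundant genes followed the median more closely than rare ones, on chromosome 20 and elsewhere. In 4 equal groups of members by mean value over 6 libraries, from rare to abundant, followers made up 28.3%, 43.9%, 64.3% and 70.4%. Genes of the same abundance off chromosomes 5, 7 and 20 lay within 0.25 of their own chromosome's median at 24.7%, 40.3%, 59.6% and 67.8%. Departing genes went from 53.5% of the rarest group to 8.16% of the most abundant, against 53.9% and 8.98% elsewhere. In the second group, with means of 166.8 to 997.6, the departing share was 20.4% on chromosome 20 and 34.3% elsewhere. The median difference itself was 0.54, 0.63, 0.57 and 0.47 in the 4 groups. These shares rest on genes of 1 set of libraries and carry no test.

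**Figure D3:**
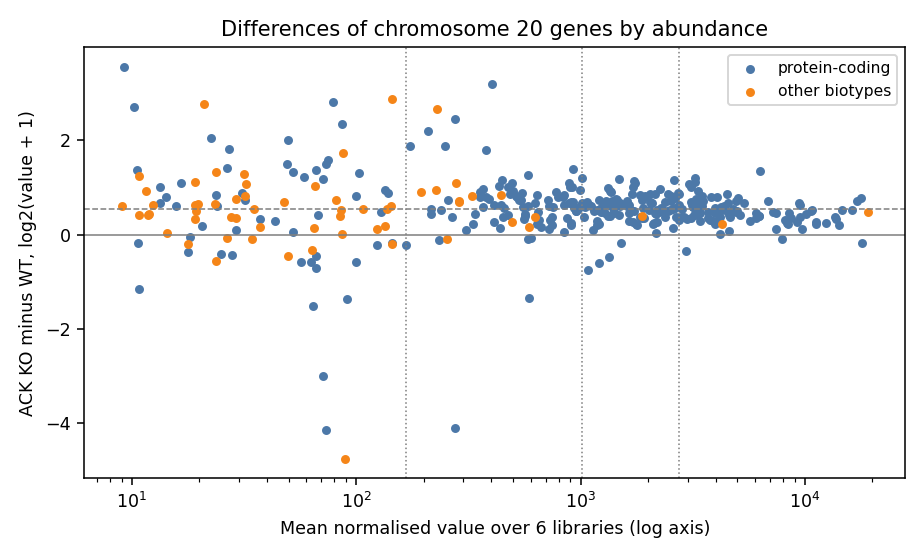
Log2(value + 1) difference, ACK KO minus WT, of each chromosome 20 member against its mean normalised value over 6 libraries on a log axis, with protein-coding genes in blue, other biotypes in orange, the members' median dashed and the limits of the 4 abundance groups dotted. The points narrow around 0.54 from left to right, from 53.5% departing in the rarest group to 8.16% in the most abundant.

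Coding and non-coding members were shifted alike in their medians, with log2 differences of 0.56 for 332 protein-coding genes and 0.53 for 49 long non-coding RNAs. Followers were 53.3% of the former and 42.9% of the latter, and 38 of the 49 long non-coding RNAs lay in the rarest group. Within that group the order was the other way round, with followers at 13.2% of 53 protein-coding genes and 44.7% of 38 long non-coding RNAs. The 10 pseudogenes had a median of 0.37. The most abundant non-coding member was NORAD, a long non-coding RNA that binds PUMILIO proteins, chosen after its values were seen. NORAD had 13786, 17829 and 16271 in WT against 18787, 25081 and 22598 with the KO label. The groups did not overlap, and the pairs differed by 0.45, 0.49 and 0.47 in log2 (limma adjusted p = 0.133, and 6.92e-04 with the block). Of the members, 98 overlap a listed gene on the opposite strand. The library kit keeps strand, but how the authors counted strands is not stated, so reads of such partners may not be parted.

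Departure of single genes was tested by a second limma fit in which each library's median over the genes of a chromosome was first removed. A gene called in it moved by more or by less than its chromosome. By this test 11 of 393 members were higher and 10 lower than the rest of chromosome 20, beside 3.99% and 3.99% of 16406 genes fitted. With the replicate block these counts were 56 and 61, beside 15.1% and 20.6%. As shares of the members, all of these counts were below those over the genes fitted. Such departures were thus not more frequent here than over all genes. The single departures did not choose the chromosome, though they come from the same contrast. Of the 11 higher calls, 9, 3 and 1 remained without WT replicate 1, 2 or 3, and 2, 1 and 1 without ACK KO replicate 1, 2 or 3. Of the 10 lower calls, 9, 4 and 4 remained without WT replicate 1, 2 or 3, and 7, 4 and 4 without ACK KO replicate 1, 2 or 3. PROCR was the 1 higher call kept in all 6 fits, and SIRPA, JAG1, LINC00261 and PRELID3B were the 4 lower ones. Of the 11 higher calls 3 and of the 10 lower calls 2 (JAG1 and LINC00261) are genes that met the minimum of 10 through 1 group alone, which leaves 8 and 8 others. All 21 kept their sign in these fits and were called with the block and without both replicate 1 libraries.

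Genes above the shared shift included some surface proteins of endothelial and blood cells, but blood cell genes did not rise as a class. Of the 17 members in the list of blood cell genes given below, 6 departed above the shift and 3 below it. The lowest of them was SIRPA, at a log2 difference of -3.01. PROCR, the endothelial receptor for protein C, had normalised values of 75.7, 75.8 and 79.3 in WT against 843, 712 and 619 with the KO label. The groups were far apart, with means of 77.0 ± 2.06 and 724.8 ± 113 (SD, n = 3 each), a 9.24-fold rise. Its log2 difference was 3.21 ± 0.20 (SE, limma adjusted p = 2.68e-04), and 2.67 ± 0.23 remained relative to the chromosome (adjusted p = 8.61e-04). PROCR overlaps MMP24OS on the opposite strand, whose log2 difference was 0.32. THBD, thrombomodulin, the thrombin receptor that activates protein C, had 47.0, 138.9 and 84.3 against 365, 546 and 471. No WT value reached the lowest KO-labelled one, and THBD rose 5.48-fold and by 1.91 relative to the chromosome (limma adjusted p = 0.0202, but up to 0.0952 without ACK KO replicate 3).

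CD40, a receptor of the tumour necrosis factor family on B cells and antigen-presenting cells, had values of 39.4, 28 and 17.3 in WT against 196, 110 and 128 with the KO label. CD40 rose 5.09-fold with no overlap (limma adjusted p = 0.0132, 0.0609 without ACK KO replicate 3), while its departure from the chromosome missed the threshold (limma adjusted p = 0.0544, and 0.00201 with the block). ZBTB46, a zinc finger factor known from classical dendritic cells, had 90.6, 47.8 and 90.0 against 360, 278 and 390. Its lowest KO-labelled value was above its highest WT value, and it rose by 1.66 in log2 relative to the chromosome (limma adjusted p = 0.0394, 0.166 without ACK KO replicate 3).

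Other members above the shift belonged to signalling, secretion and transcription. PKIG, an inhibitor of protein kinase A, had 91.4, 104 and 117 in WT against 491, 354 and 330 with the KO label, a 3.69-fold rise. The groups were separate, and PKIG overlaps ADA on the opposite strand, so the reads of the pair may not be parted. ADA, adenosine deaminase, chosen after its values were seen, had 339, 331 and 356 against 910, 874 and 688, a 2.39-fold rise (limma adjusted p = 0.00633). ZNF133, a KRAB zinc finger protein, had 193, 194 and 126 against 631, 589 and 531, a 3.46-fold rise. Relative to the chromosome, PKIG rose by 1.34 and ZNF133 by 1.25 in log2 (limma adjusted p = 0.0257 and 0.0273, lost without any 1 library other than WT replicate 1). Both lie among the 14 genes called before removal of the chromosome median in all 6 fits that leave out a library.

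Some rises began from near the lower limit of the table. CHGB, chromogranin B of secretory granules, had 1.91, 1.81 and 2.24 in WT against 18.5, 19.3 and 17.8 with the KO label. Its values were close within each genotype, and its log2 difference was 2.71 with 1 added to each value and 1.75 with 5 added. NTSR1, the neurotensin receptor, had 0, 2.71 and 0 against 19.7, 13.6 and 19.1, with log2 differences of 3.56 and 1.95 in the same order. TCF15, a basic helix-loop-helix factor of somite development, had 16.2, 23.6 and 17.9 against 77.9, 89.6 and 72.6, a 4.04-fold rise with no overlap. Relative to the chromosome the 3 were called in limma at adjusted p-values of 0.0166, 0.0292 and 0.0225, and each lost the call in 5 of 6 fits without 1 library. CHGB and NTSR1 met the minimum of 10 through the KO-labelled libraries alone, so their tests are given as description. NKILA, an antisense RNA to PMEPA1 with which its reads may be mixed and which also met the minimum through the KO-labelled libraries alone, rose at an adjusted p of 0.0495 and PPDPF at 0.0431 by the same limma test. PPDPF had 1031, 1256 and 1056 in WT against 2277, 2514 and 2303 with the KO label, the smallest of the 11 departures at 0.55.

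Further large rises were not called against the chromosome, and of those given here all but EPB41L1 were called against WT. EDEM2, which takes part in degradation of misfolded proteins of the endoplasmic reticulum, rose 2.64-fold (limma adjusted p = 0.00346, and 0.0574 relative to the chromosome, with 7.96e-04 in the blocked relative fit). PPP1R3D, which targets protein phosphatase 1 to glycogen, rose 3.02-fold and MROH8 2.48-fold (limma adjusted p = 0.0141 and 0.037, reaching 0.0842 and 0.164 without ACK KO replicate 3). EPB41L1, a member of the protein 4.1 family, had 89.6, 40.2 and 88.8 in WT against 413, 158 and 252 with the KO label. These groups did not overlap, with a limma adjusted p of 0.0508, and 5.81e-04 with the block.

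Below the shift, 4 p arm genes fell most steeply. JAG1, a ligand of Notch receptors, had 247, 93.6 and 83.5 in WT against 6.26, 5.41 and 6.68 with the KO label. No KO-labelled value came near the lowest WT value. JAG1 fell by 4.15 ± 0.47 in log2 (SE, limma adjusted p = 0.00287), with a difference of -3.55 when 5 in place of 1 is added to each value. SIRPA, the inhibitory myeloid receptor for CD47, had 140, 135 and 102 against 17.1, 24.7 and 7.08, and fell by 3.01 ± 0.47 (limma adjusted p = 0.00999). LINC00261, a long intergenic RNA, had 317, 72.8 and 129 against 2.52, 3.03 and 9.69, and fell by 4.76 ± 0.67 (limma adjusted p = 0.00676), or a difference of -3.96 with 5 added. JAG1 and LINC00261 met the minimum of 10 through WT alone, so their tests had to favour a fall and are given as description. In each of these the groups were separate, and each was called lower in all 6 fits without 1 library, before and after removal of the chromosome median.

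CPXM1, a member of the carboxypeptidase family, was the fourth. Its values were 1087, 201 and 262 in WT against 77.1, 10.1 and 11.9 with the KO label, with replicate 1 highest in both genotypes. The pairs differed by -3.80, -4.18 and -4.36, and CPXM1 fell by 4.11 ± 0.93 in log2 (SE, limma adjusted p = 0.037). That call was kept in 1 of 6 fits without 1 library, reaching 0.143 without ACK KO replicate 3, and the blocked adjusted p was 3.17e-05.

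**Figure D4:**
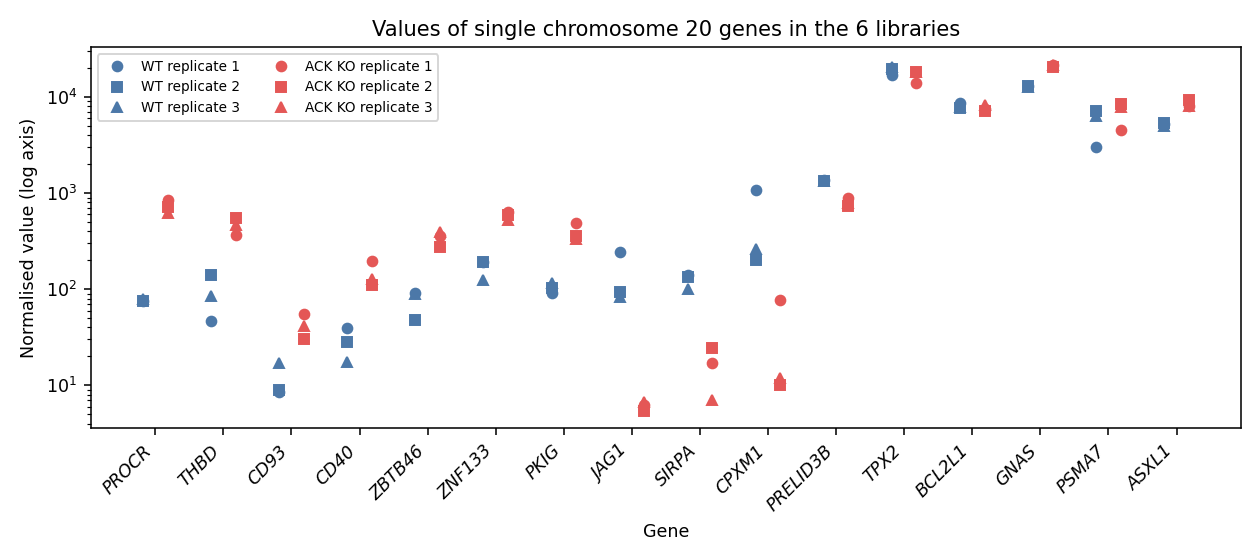
Normalised values on a log axis of 16 chromosome 20 genes in WT (blue) and ACK KO (red) libraries, with replicate numbers 1, 2 and 3 as circle, square and triangle. PROCR, THBD and their neighbours on the left lie higher in red, JAG1, SIRPA, CPXM1 and PRELID3B lie lower, and TPX2 and BCL2L1 overlap between the genotypes while ASXL1 and GNAS lie higher in red.

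Abundant genes also departed downward, by less. PRELID3B, of a family that transfers phospholipids in mitochondria, had 1375, 1339 and 1338 in WT against 883, 738 and 792 with the KO label. The groups were separate, with a fall of 0.75 ± 0.14 in log2 (SE, limma adjusted p = 0.0169, 0.0915 without ACK KO replicate 3) and of 1.29 relative to the chromosome (adjusted p = 0.00591). RALGAPA2, a catalytic subunit of the complex that switches off Ral GTPases, had 1421, 1574 and 1340 against 1177, 890 and 817. RALGAPA2 did not overlap between genotypes and fell by 1.14 relative to the chromosome (limma adjusted p = 0.02, 0.0948 without ACK KO replicate 3), while against WT its log2 difference was -0.60 (adjusted p = 0.0878, and 0.00783 with the block).

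TPX2, FAM83D, TM9SF4 and ZNF217 were at or a little under their WT level, where the rest of the chromosome was higher. TPX2, a microtubule factor of the mitotic spindle, had 17113, 19468 and 20707 in WT against 13907, 18374 and 18264 with the KO label. These values overlapped, at a log2 difference of -0.19 ± 0.16 (SE, limma adjusted p = 0.546), and lay 0.73 below the chromosome (adjusted p = 0.0191, 0.105 without WT replicate 3). TM9SF4, a transmembrane protein, had 3965, 4501 and 4019 against 4003, 4516 and 4093, with pair differences of 0.01, 0.00 and 0.03, and lay 0.53 below the chromosome (limma adjusted p = 0.0344, 0.175 without ACK KO replicate 3). ZNF217, a zinc finger factor often amplified in tumours, and FAM83D, a spindle protein, had log2 differences of -0.35 and -0.47 (limma adjusted p = 0.204 and 0.375, and 0.0214 and 0.0118 with the block). Relative to the chromosome they lay 0.89 and 1.01 lower (limma adjusted p = 0.0376 and 0.0393, reaching 0.161 without ACK KO replicate 3 and 0.157 without WT replicate 3).

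Departing genes were mostly not next to another that departed in the same direction. The 48 above the shift fell into 37 runs of adjacent members, 28 of them of a single gene, and the 43 below into 33 runs, 27 of a single gene. The stretches described next were picked after their values were seen and carry no test. On the p arm, THBD, CD93, LINC00656 and ENSG00000279164 are consecutive members within 104 kb (chr20:23045633-23149939, GENCODE 29 positions on GRCh38), with a median log2 difference of 2.56 and pair medians of 2.99, 1.99 and 2.69. CD93, a C-type lectin-like receptor of endothelial and myeloid cells, had 8.62, 9.01 and 16.9 in WT against 55.8, 30.3 and 41.4 with the KO label. LINC00656 had 106, 28.5 and 27.4 against 887, 118 and 214, highest in replicate 1 of both genotypes. All 4 were separate between genotypes, the next member on one side was LINC00261 at -4.76, and on the other NXT1, an mRNA export factor, at 0.69.

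A stretch on the q arm close to the centromere showed little difference between genotypes. BCL2L1, ABALON, TPX2, MYLK2, PDRG1 and TM9SF4 lie within 503 kb (chr20:31664452-32167258), with log2 differences from -0.43 to 0.29, a median of -0.08 and pair medians of -0.14, -0.04 and 0.05. The members on either side, ID1 at 0.72 and TSPY26P at 0.42, were within 0.25 of the chromosome's median. BCL2L1, which encodes the anti-apoptotic protein BCL-XL, had 8759, 7650 and 7935 in WT against 7462, 7085 and 8351 with the KO label. Its groups overlapped, at -0.09 ± 0.12 (SE, limma adjusted p = 0.732) and 0.63 below the chromosome (adjusted p = 0.0661, and 8.26e-04 with the block). ABALON is antisense to BCL2L1, so their reads may be mixed. Farther out, ZNF217, SUMO1P1, BCAS1 and PFDN4 (chr20:53567065-54228052) had a median of -0.26, between ZFP64 at 0.34 and FAM210B at 0.81.

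Grouped by role, the members had list medians of 0.29 to 0.83, beside 0.54 for the whole chromosome. The 12 lists name 181 members in all, and counts below were made with all 6 libraries by limma over all tested genes. Of all tested genes 5.37% were higher and 4.96% lower, as given above. Every list holds chromosome 20 genes alone, so the nearer background is the chromosome itself. Of its 393 members 81 (20.6%) were called higher and 5 lower, and 272 and 10 with the block. Genes of the ribosome and translation had a median of 0.47 over 13 members, all above 0, with 0 limma calls (5 at an unadjusted p below 0.05), and 13 higher with the replicate block. RPS21, a small-subunit ribosomal protein, had a log2 difference of 0.52 and NOP56, a nucleolar protein, of 0.51 (limma adjusted p = 0.0938 and 0.653, and 8.96e-04 and 0.00114 with the block). RNA processing and splicing genes had a median of 0.44, all 21 above 0, with 2 called higher, and 19 with the block. The proteasome and ubiquitin list had a median of 0.45 over 12 members, with 0 limma calls (5 at an unadjusted p below 0.05), and 10 higher with the block. PSMA7, a proteasome core subunit, had 3032, 7115 and 6315 in WT against 4554, 8476 and 7865 with the KO label, replicate 1 being the lowest of both (limma adjusted p = 0.616, and 0.00868 with the block).

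Membrane traffic and lysosome genes had a median of 0.61, and 11 of 22 members rose, 20 with the block. ERGIC3, which cycles between the endoplasmic reticulum and the Golgi, rose by 0.77 (limma adjusted p = 0.012, 0.0695 without WT replicate 3) and STX16, a syntaxin of the trans-Golgi network, by 0.49 (adjusted p = 0.0391, lost without any 1 of the 6 libraries, up to 0.178). SNX5, a sorting nexin, differed by 0.22 (limma adjusted p = 0.31, and 0.0461 with the block). In the mitochondria and metabolism list 9 of 27 rose, 23 with the block, at a median of 0.51. PIGT, of the enzyme that attaches GPI anchors, rose by 0.79 (limma adjusted p = 0.0226, 0.0902 without ACK KO replicate 2). IDH3B, a subunit of mitochondrial isocitrate dehydrogenase, differed by 0.08 (limma adjusted p = 0.903), 0.46 below the chromosome (adjusted p = 0.256, and 0.0018 with the block).

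Cell cycle, DNA replication and mitosis genes had a median of 0.44 over 22 members, of which 4 rose, and 17 higher and 1 lower with the block. MAPRE1, a microtubule plus-end protein, differed by 0.51, CSE1L, an exportin, by 0.20 and TOP1, DNA topoisomerase I, by 0.23 (limma adjusted p = 0.285, 0.778 and 0.749, and 8.02e-04, 0.0233 and 0.0228 with the block). Kinases, phosphatases and phospholipases had a median of 0.57, with 6 of 15 higher, and 10 higher and 1 lower with the block. PLCG1, phospholipase C gamma 1, had 2711, 1619 and 1829 in WT against 5765, 3816 and 3712 with the KO label. Its groups did not overlap, and it rose by 1.12 (limma adjusted p = 0.0388, 0.151 without WT replicate 3). PTPN1, a tyrosine phosphatase, differed by 0.11 (limma adjusted p = 0.807). Transcription factors and chromatin proteins had a median of 0.50, with 9 of 39 higher, and 31 higher and 1 lower with the block. MYBL2, a cell cycle transcription factor, differed by 0.35 (limma adjusted p = 0.254, and 0.00647 with the block).

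Blood cell genes were the list that spread most widely in both directions among those with over 10 members, from SIRPA at -3.01 to PROCR at 3.21, at a median of 0.72. Of 17 members, 7 rose and 1 fell, with 14 and 1 in the blocked fit. ASXL1, a chromatin regulator mutated in myeloid disease, had 5229, 5392 and 4996 in WT against 8010, 9353 and 8158 with the KO label. The groups did not overlap, and ASXL1 rose by 0.71 ± 0.12 (SE, limma adjusted p = 0.012, 0.0724 without WT replicate 3), 0.17 above the chromosome. The 22 members known for gain of 20q in tumours had the lower median of 0.35, with 2 higher, and 13 higher and 1 lower with the block. Of these, 5 lay more than 0.5 below the chromosome's median, among them TPX2.

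The list of imprinted genes, expressed from 1 parental copy in at least some tissues, had 5 members and a median of 0.29. It is not a full set of such genes, and MCTS2, a member at -0.23, is not on it. GNAS, which encodes the stimulatory G protein alpha subunit and is expressed from both copies in most cells, had 13035, 12993 and 12725 in WT against 21590, 20703 and 21717 with the KO label. The genotypes were far apart beside their spread, and GNAS rose by 0.72 ± 0.10 (SE, limma adjusted p = 0.00737, 0.0524 without ACK KO replicate 3). BLCAP differed by 0.61 and HM13, a signal peptide peptidase, by 0.29 (limma adjusted p = 0.176 and 0.459, and 0.00193 and 0.0118 with the block). L3MBTL1, a chromatin reader, had 882, 409 and 534 against 764, 470 and 438, overlapping at -0.10 (limma adjusted p = 0.908), and SGK2, a kinase, differed by 0.09 (adjusted p = 0.965). Of 27 genes typical of other tissues only 5 met the minimum, with 1 higher and 1 lower, and 3 and 1 with the block. The 1 higher and 1 lower without the block were CHGB and JAG1. Both met the minimum through 1 group alone, so their calls are given as description. Among the 5 members, HNF4A, a liver and gut factor, had 172, 6.56 and 14.3 against 369, 22.7 and 11.7, following the replicate number more than the genotype (limma adjusted p = 0.814).

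**Figure D5:**
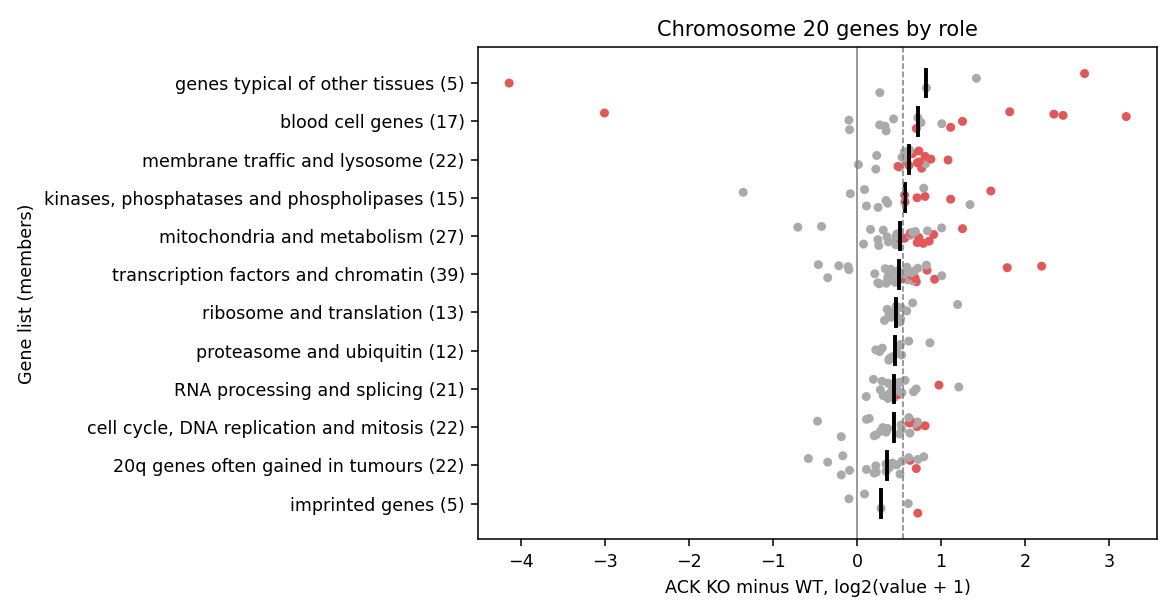
Log2(value + 1) differences, ACK KO minus WT, of the chromosome 20 members of 12 gene lists (number of members in brackets), in red where the limma adjusted p was below 0.05, with the list median as a black bar and the median of all members dashed. The list medians lie between 0.29 and 0.83, while the blood cell genes and the genes of other tissues reach farthest to both sides. Among the genes of other tissues this reach is that of JAG1 and CHGB, which met the minimum through 1 group alone and so had to differ.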

How the data were processed

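Polyadenylated RNA of 6 K562 libraries (3 WT, 3 ACK KO) was measured, per the labels' protocols with stranded kits and unique molecular identifiers. The authors deposited normalised counts per gene, a signal that is neither whole reads nor on a log scale. Per the submitters' processing notes the genome was GRCh38 and the tools included Salmon 1.1.0, STAR 2.7.2b and DESeq2 1.26.0, with no role or order given, and no annotation release is stated. Read depth is unknown, since whole reads could not be recovered: 44.8% to 59.1% of values under 10 lay on a common step within 0.05 of a read.

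Positions and biotypes came from GENCODE 29, which placed 19112 of 19498 genes, and arms were split at a gene start of 28 Mb. The test was limma 3.58.1 (R 4.3.3) on log2(value + 1), using an intensity trend and Benjamini-Hochberg adjustment over all 16658 tested genes (minimum 10 in at least 3 of 6 libraries). The relative fit first removed each library's median over the tested genes of a chromosome. Differences are ACK KO minus WT, folds are the fitted difference taken off the log2 scale, and tests were checked on simulated data.

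Same-numbered libraries deviated together (correlations 0.699, 0.521 and 0.342), most clearly for number 1. Numbers 2 and 3 also correlated with each other across genotypes (0.281 and 0.257). A blocked fit on replicate number therefore stands beside results it changes. The meaning of the numbers is not stated.

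The members and lists were chosen with earlier results of these data known. Named genes are TNK2 and the 10 largest rises and falls with no overlap and a mean of at least 100 in the higher group. The 6 members nearest the median with a mean of 1000 or more and up to 12 relative calls in each direction are also named. So are the 4 most abundant members of each list and every member of the imprinted list. Of the largest falls, only 5 met the rule. Others are named after their values were seen: the runner-up genes at the minimum, the genes of the stretches and their neighbours, the genes called in every fit without 1 library, and those so described. Alternatives were another pseudocount, filter, scaling, centring and variance model, the block, and leaving libraries out; the fit without both replicate 1 libraries and 1 further centring were chosen after seeing the data.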

Additional observations from a re-analysis of the deposited data

How the results depend on the processing

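The median difference of chromosome 20 was 0.54, and 0.51 with libraries centred on genes off chromosomes 5, 7 and 20; leaving out single libraries gave 0.50 to 0.62. The arm difference of -0.05 ranged from -0.10 to -0.03, the 203 followers from 176 to 205 and TNK2 from -0.32 to -0.05 in those fits. In the fit with replicate numbers as pairs, the replicate block raised the counts of single-gene calls from 81 to 272 higher and from 5 to 10 lower, and of relative calls from 11 to 56 and from 10 to 61. Without both replicate 1 libraries these 4 counts were 220, 10, 35 and 42. Leaving out single libraries gave 16 to 100, 3 to 6, 1 to 15 and 4 to 11. A mean of 50 or more left 6 relative higher calls, with 7 of the 11 genes still tested. Without the intensity trend 56 of the 81 higher calls were kept, and 67 with the centring above.

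Over the 74 genes of the naming rule, fits without 1 library gave 409 values on the same side of the threshold and in the same direction, 134 that lost a call, 6 that gained one and 21 that changed sign. The other settings gave 616, 18, 62 and 1. The changes of sign were in differences near 0 or in genes of wide spread: TM9SF4 (-0.0212 with the centring above, -0.0375 to 0.0729 without 1 library), CSE1L (-0.0778 to 0.50), TOP1 (-0.0856 to 0.50), PTPN1 (-0.0434 to 0.28), CTCFL (-0.00124 to 0.56), RBM12 (-0.20 to 0.38), NOP56 (-0.00828 to 0.97), IDH3B (-0.14 to 0.30), L3MBTL1 (-0.35 to 0.21), SGK2 (-0.51 to 0.89) and HNF4A (-0.64 to 2.16). The cause of these changes was not tested.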
